A study of Mus musculus with 6 samples.

Results

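The Serpina1 genes of the mouse encode alpha-1-antitrypsin and form a tandem array of near-identical copies on the minus strand of chromosome 12. Splicing of this array was examined in hepatocytes, the secretory cells of the liver, on a high-fat diet (HFD) and a low-fat diet (LFD). The members were Serpina1a, Serpina1b, Serpina1c, Serpina1d and Serpina1e, the pseudogene Gm8893, which lies among them, and the antisense gene B430119L08Rik, which overlaps Serpina1c on the plus strand. The genes were selected on their PSI differences between the diets in these same tables, and all LSVs of these gene names were then taken, whatever their difference. The changes below are therefore described, and none is offered as a test. The members held 97 of the 32799 local splicing variations (LSVs) listed for either diet. They also held 6 of the 124 LSVs in the authors' deposited table of differences, and 5 of the 470 events in their table from the program JUM.

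Hepatocytes came from male C57BL/6J mice, with 3 libraries per diet. HFD mice ate chow with 13.5% fat up to an age of 8 weeks and then a diet with 60% fat for 12 weeks. LFD mice had the same chow first and then a diet with 10% fat for the same time. All values were pooled over the libraries of a diet, so neither a spread between animals nor a test over animals can be given, and the depth of each library is unknown. An SD below is the posterior SD of a pooled value and covers reads only. Of 10 hepatocyte marker genes, all 10 had LSVs in both tables, while 1 of 7 macrophage, 2 of 7 endothelial, 1 of 6 stellate and 1 of 5 bile duct markers did.

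Alpha-1-antitrypsin is a serpin, a protease inhibitor that presents an exposed reactive centre loop as bait, traps the protease that cleaves it and is consumed in the act. It is among the most abundant proteins that hepatocytes secrete, and its best-known target is neutrophil elastase. In the Serpina1 genes the coding sequence begins in exon 2 and ends in exon 5, and exon 5 encodes the reactive centre loop. Mice carry several copies, which differ most in that loop.

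The copies were nearly identical over the coding exons. Exons 2 to 5 of the 6 copies, read from the GENCODE M21 transcripts, were identical at 96.3% to 98.8% of coding bases between any pair, and 92 of 1239 aligned positions (7.43%) differed somewhere among the 6. Exon 2 of Serpina1a and of Serpina1c did not differ at any of its 632 bases. Gm8893 was closest to Serpina1a, with 98.8% identity. A stretch of 100 bases, the number of sequencing cycles per read end, recurred exactly in another copy for 60.1% of the windows in Serpina1a and 57.5% of those in Serpina1c. That share was 30.8% in Serpina1d, 27.7% in Serpina1b, 24% in Gm8893 and 17.7% in Serpina1e. A read end lying wholly in such a stretch cannot be placed in 1 copy by its own bases.

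The 30 bases at which the copies differed most lie in exon 5, at the reactive centre loop, and are shown because they best tell the copies apart. Positions are counted along the mRNA from 1 at the start of exon 2, and this stretch covers 1106 to 1135. Capitals mark the 13 positions at which any copy differs. All sequences here are GENCODE M21 transcript sequence (mm10), written 5′ to 3′ on the minus strand.
Serpina1a, chr12:103853786-103853815: gcagTtacagtcttACAaATGgTtCCtATG
Gm8893, chr12:103817967-103817996: gcagCtacagtcttACAaATGgTtCCtATG
Serpina1b, chr12:103728353-103728382: gcagCtacagtcttTGAaGCCgTtCCtATG
Serpina1c, chr12:103895123-103895152: gcagCtacagtcttACTaGCCgTtCCtTAT
Serpina1d, chr12:103763791-103763820: gcagCtacagtcttACAaGTCgCtACtTAT
Serpina1e, chr12:103947129-103947158: gcagCtacagtcttACAaGGCgGtTTtTTG
Gm8893 differs from Serpina1a at 1 of these bases, Serpina1b at 6, and Serpina1c, Serpina1d and Serpina1e at 8 each.

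The next set is shown because more joins between copies met there than at any other position inside an exon. Positions 709 and 710 of exon 3 stand in the middle of the word AGGT, in capitals. AGGT occurred exactly once in exons 2 to 5 of each of the 6 copies.
Serpina1a, chr12:103855883-103855912: tccaccacggtgaAGGTgcccatgatgacc
Serpina1c, chr12:103897220-103897249: tccaccacggtgaAGGTgcccatgatgacc
Serpina1e, chr12:103949226-103949255: tccaccacggtgaAGGTgcccatgatgacc
Gm8893, chr12:103820064-103820093: tccaccacggtgaAGGTgcccatgatgacc
Serpina1d, chr12:103765879-103765908: tccaccacagtgaAGGTgcccatgatgacc
Serpina1b, chr12:103730429-103730458: tccaccacggtgaAGGTgcccatgatgatg
The first 4 are identical over these 30 bases, Serpina1d differs from them at 1 base and Serpina1b at 2.

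A further pair of meeting points carries the reverse complement, ACCT, in capitals. Position 1009 and 1010 in exon 4 is shown for copies that the strongest joins used there, and position 145 and 146 in exon 2 likewise.
Serpina1a, exon 4, chr12:103854698-103854727: aacaatggggctgACCTctccggaatcaca
Gm8893, exon 4, chr12:103818879-103818908: aacaatggggctgACCTctccggaatcaca
Serpina1e, exon 4, chr12:103948044-103948073: aacagtggggctgACCTctccggaatcaca
Serpina1a, exon 2, chr12:103857897-103857926: gagatcgctacaaACCTgggagactttgca
Serpina1d, exon 2, chr12:103767888-103767917: gagatcgctacaaACCTgggagactttgcc
Gm8893, exon 2, chr12:103822088-103822117: gagatcactacaaACCTgggagactttgcc
Within each of these sets the copies shown differ from each other at no more than 2 of the 30 bases.

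An LSV groups the splice junctions that share an exon at 1 end, together with an intron retained beside that exon, and each junction or retained intron is an entry. PSI is the fraction of an LSV's reads that use an entry, and says nothing of how much of a gene was expressed. A value at an end of the PSI scale is given without its SD, which is close to 0 there. Of the 97 member LSVs, 89 were listed for HFD and 92 for LFD, 84 were in both tables, 5 were in the HFD table alone and 8 in the LFD table alone. Serpina1b had 40 LSVs, Serpina1a and Serpina1d 14 each, Serpina1c and Gm8893 9 each, Serpina1e 7 and B430119L08Rik 4. The GENCODE gene named Serpina1b spans 102218 bp and encloses Serpina1d and Gm8893, whereas the RefSeq gene of that name spans 10034 bp. LSVs listed under Serpina1b can therefore lie in another copy. That span does not account for all such cases. An LSV under Serpina1b also lay beyond it, in Serpina1a, and LSVs under Serpina1a, Serpina1d and Gm8893 lay in other copies too.

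Member LSVs were complex. They had a median of 5 entries, against 2 in the whole series, and 62.9% of them had at least 4 entries, against 10.8% of all LSVs. The LSV of exon 2 of Serpina1b had 38 entries, and no LSV in the series had more. Most of these entries carried almost no reads or almost all of them: 70.7% of the 560 member entries present for both diets lay within 0.001 of 0.0125 or 0.9875, the lowest and highest values of the PSI scale, on both diets, against 39.5% of all entries. Of 303 distinct spliced junctions, 72 were listed under 2 members and 4 under 3.

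The junctions were then separated into those within a copy and those joining 2 copies. The members had 117 distinct junctions within a copy, of which 30 are in GENCODE, and 177 distinct junctions that joined copies, of which 0 are. Another 9 junctions had an end outside the copies, and there were 18 distinct retained introns. A joining junction was present in 74 of the 97 LSVs. The joins spanned 16433 to 219666 bp and linked 17 pairs of copies. PSI reached at least 0.05 on a diet at 53 of them, and at least 0.2 at 30.

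**Figure D1:**
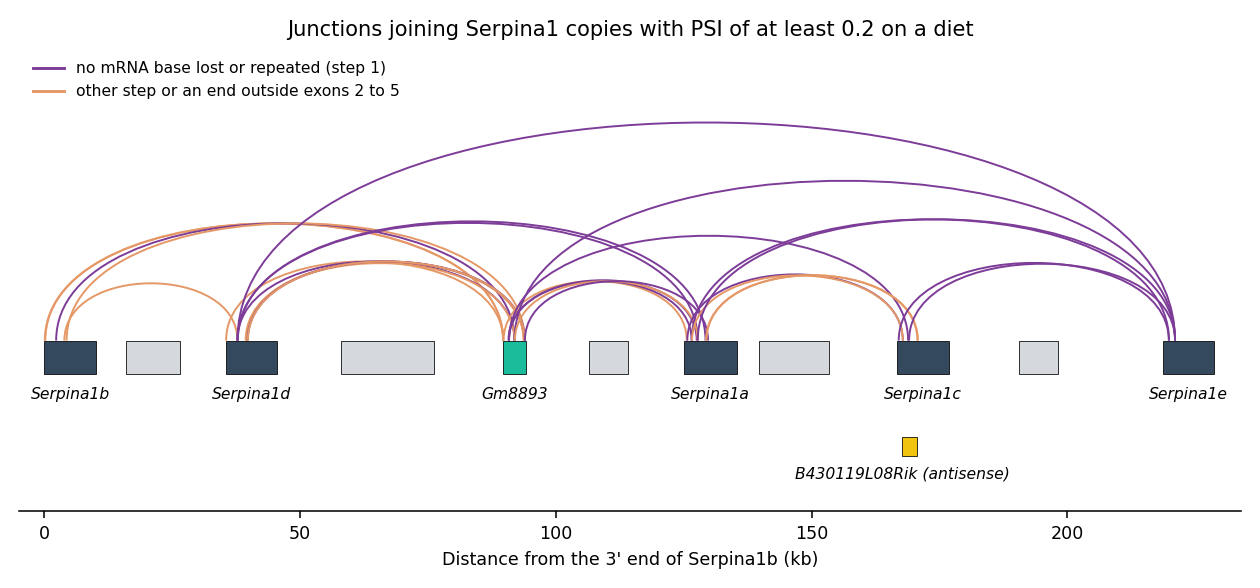
Map of the Serpina1 array, with distance from the 3' end of Serpina1b in kb on the horizontal axis and arcs for the 30 junctions that join copies with a PSI of at least 0.2 on either diet. Dark boxes are Serpina1 genes (RefSeq spans), the green box is Gm8893, grey boxes are 5 other annotated pseudogenes and the yellow box is B430119L08Rik on the plus strand; purple arcs lose or repeat no base of the mRNA, and orange arcs do or have an end outside exons 2 to 5, and arc height grows with length only.

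The length of a join followed the distance between the copies. Serpina1c was joined to Serpina1a by 32 junctions with a median length of 41300 bp, and the starts of their exons 3 lie 41337 bp apart. Serpina1d was joined to Serpina1b by 30 junctions with a median of 35389.5 bp, for a spacing of 35450 bp. For Gm8893 to Serpina1d there were 22 junctions (median 54160 bp, spacing 54185 bp), and for Serpina1a to Gm8893 there were 21 (median 35810 bp, spacing 35819 bp). Even the remote pair Serpina1e and Serpina1b had 4 junctions, with a median of 219190 bp for a spacing of 218797 bp. The ends of a join thus sat at like places in the 2 copies.

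How alike those places were was measured on the mRNA. The step of a join is the first mRNA position after it minus the last before it, so that a step of 1 means that no base of the mRNA is lost or repeated. Of 165 joins with both ends in exons 2 to 5, 55 (33.3%) had a step of 1, and 29 of these ran from an exon edge of 1 copy to the next exon edge of the other while 26 had both ends inside the same exon. In 24 joins 1 base was skipped, in 7 joins 1 base was repeated, and in 75 joins 27 to 975 bases were repeated, with a median of 90. The copies were identical around the 26 joins inside exons over runs of 15 to 83 bases, with a median of 33.

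**Figure D2:**
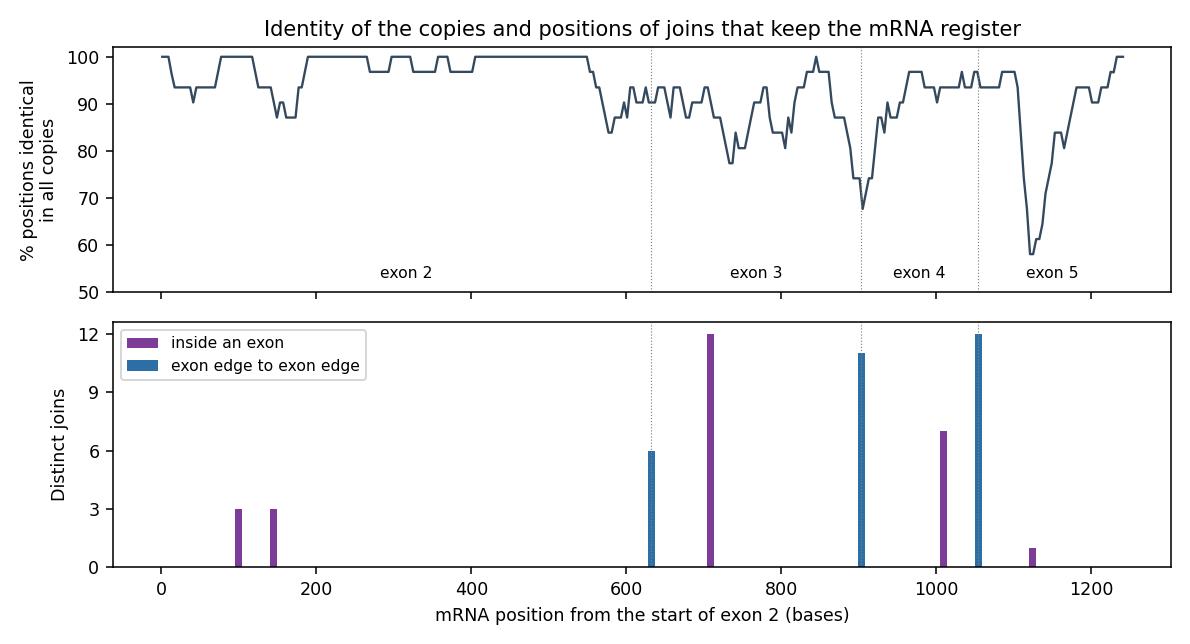
The upper panel plots the percentage of positions identical in all 6 copies, in windows of 31 bases, against the mRNA position counted from the start of exon 2 (dotted lines are exon edges). The lower panel plots the number of distinct joins with a step of 1 at each position: 12 joins met at 709 and 710 inside exon 3 and 7 at 1009 and 1010 inside exon 4, while edge-to-edge joins numbered 6, 11 and 12 at the ends of exons 2, 3 and 4.

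The joins inside exons met at few positions. At 709 and 710, the AGGT word shown above, 12 joins linked 12 pairs of copies. At 1009 and 1010 there were 7 joins, at 145 and 146 as well as at 99 and 100 there were 3 each, and at 1124 and 1125 there was 1. Altogether 28 pairs of mRNA positions were used by more than 1 junction, and these took in 117 of the junctions.

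Most joins inside exons met the letters of a splice site in exonic sequence. Introns usually start with GT and end with AG, and an aligner can also accept CT and AC, the same letters read from the other strand. Of 127 joins with both ends at least 2 bases inside an exon, 60 (47.2%) had GT after the upstream end and AG before the downstream end, and 49 (38.6%) had CT and AC, so that 109 (85.8%) had either pair. Among joins with a step of 1, 12 had GT and AG and 13 had CT and AC, making 25 of 26 (96.2%). Where both copies are identical, a step of 1 needs the word AGGT for GT and AG. The word AGGT stood at 6 of 7829 exon positions (0.0766%), and ACCT at 36 (0.46%). An aligner can accept a join by these letters, so nothing is read from how often the joins had them. These motifs were searched in exons only, on the mRNA strand, since intron sequence was not used here. How the reads at these joins were placed among the copies was not tested.

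Several joins had a high PSI on both diets. The join at 709 and 710 of Serpina1a and Serpina1d (103855898 to 103765893) had a PSI of 0.914 ± 0.0167 on HFD and 0.911 ± 0.0164 on LFD among junctions leaving exon 3 of Serpina1a in an LSV listed under Serpina1d. In the LSV of the exon it enters, exon 3 of Serpina1d, the same junction had 0.0368 on HFD and 0.0354 on LFD under Serpina1d. Under Serpina1b it had 0.294 on both diets among junctions entering part of that exon, and 0.691 on HFD and 0.631 on LFD among those leaving exon 3 of Serpina1a. A PSI is a fraction of 1 exon's reads, so that the same junction can be nearly all of 1 LSV and a small share of another.

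The same held for other pairs. The join of Serpina1e and Serpina1c at that position (103949241 to 103897234) had 0.952 ± 0.0125 on HFD and 0.902 ± 0.0237 on LFD among junctions leaving exon 3 of Serpina1e, and 0.133 on HFD and 0.0969 on LFD among those entering exon 3 of Serpina1c. The edge-to-edge join of exon 3 of Serpina1c and exon 4 of Gm8893 (103897041 to 103818999) had 0.769 ± 0.0381 on HFD and 0.747 ± 0.0342 on LFD among junctions leaving exon 3 of Serpina1c, and 0.041 on HFD and 0.0398 on LFD among those entering exon 4 of Gm8893 in an LSV under Gm8893. In an LSV under Serpina1b at the same exon it had 0.335 on HFD and 0.363 on LFD. In the PSI tables these 3 joins differed by at most 0.06 between the diets in every LSV that held them. In the authors' deposited table of differences, the join of Serpina1e and Serpina1c had 0.002 on HFD and 0.919 on LFD.

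The diets were compared at the 560 entries in both tables. An entry was called different where the PSI difference was at least 0.2 and also exceeded what the posterior variances of both diets together allow at the usual normal bound. Across the series 284 of 68110 entries were called (0.417%), in 168 of 26910 LSVs (0.624%). Among members 17 of 560 entries were called (3.04%), in 10 LSVs, 8 of them higher and 9 lower on HFD. They were listed under Serpina1b (8 entries), Serpina1a (5) and Gm8893 (4), and none under Serpina1c, Serpina1d, Serpina1e or B430119L08Rik. The listed name did not give the place, because the exons of these LSVs lay in other copies. Those under Serpina1a lay in Serpina1c and those under Gm8893 in Serpina1a. Those under Serpina1b lay in Serpina1d, Gm8893 and Serpina1a. The members were singled out on these tables, so nothing is read from their share.

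**Figure D3:**
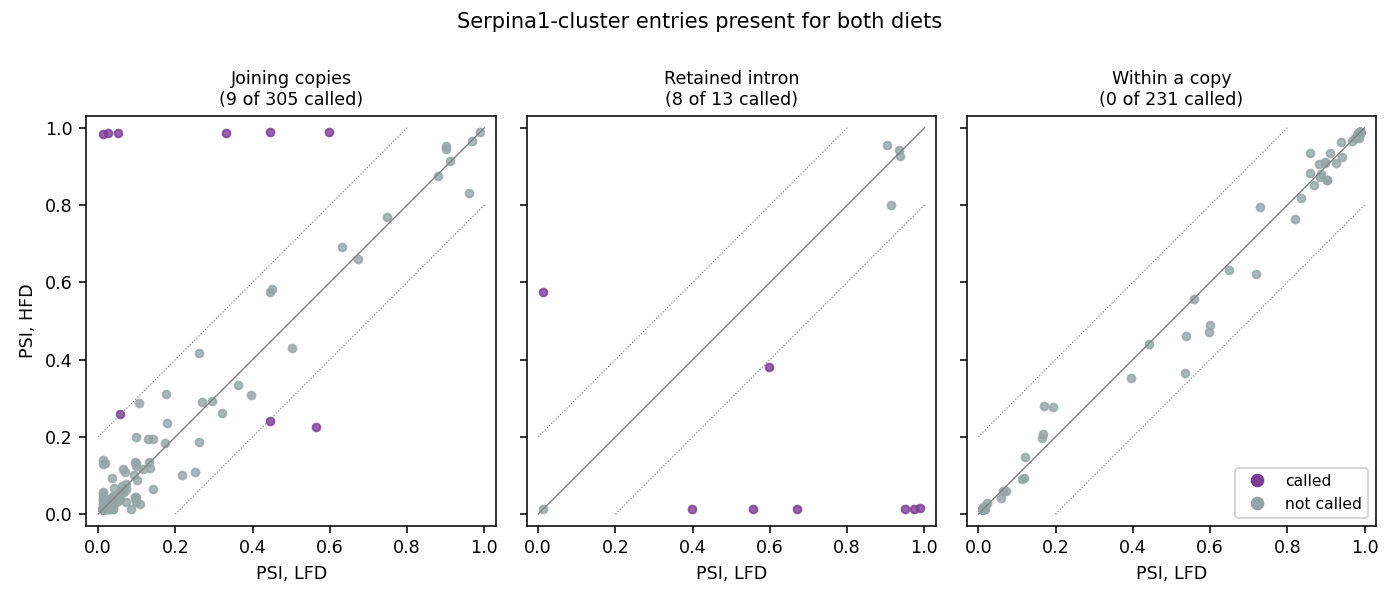
PSI on HFD (vertical axis) against PSI on LFD (horizontal axis) for member entries present for both diets, in panels for junctions joining copies, retained introns and junctions within a copy. Each point is an entry pooled over 3 libraries per diet, purple points are called different and dotted lines mark a difference of 0.2; 9 of 305 joining junctions, 8 of 13 retained introns and 0 of 231 junctions within a copy were called.

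The called entries were joining junctions and retained introns. Of 305 entries joining copies, 9 were called, 7 higher and 2 lower on HFD, with differences between -0.339 and 0.972. Of 13 retained introns, 8 were called, 1 higher and 7 lower on HFD. The share called was not counted by kind over the whole series, so nothing is read from these counts. None of 231 entries within a copy was called, with differences between -0.168 and 0.109. The share called over all entries of the series was itself only 0.417%. All 10 LSVs with a call held a joining junction, as did all 13 LSVs listed for 1 diet. In the 23 LSVs without a joining junction the largest difference was 0.168 and the median of the largest differences was 0, against a median of 0.0265 in the 61 LSVs that had one and were in both tables.

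The retained introns were mostly pieces of exons. Of the 18 distinct ones, 13 lie wholly inside an annotated exon of a copy, with lengths of 18 to 94 bp, and 7 of the 8 called entries are among these. In 5 of the 10 LSVs with a call, the 2 entries were a joining junction and a retained intron, so that a higher share of one is a lower share of the other. The segment of 18 bp in exon 2 of Serpina1d had 0.0125 on HFD and 0.95 on LFD, and that of 34 bp in exon 4 of Serpina1a had 0.0125 on HFD and 0.555 on LFD in an LSV under Gm8893. The same 34 bp had 0.927 ± 0.0135 on HFD and 0.937 ± 0.0137 on LFD in an LSV under Serpina1d, and 0.953 on LFD in an LSV under Serpina1b that was listed for LFD alone. The segment of 24 bp in exon 2 of Serpina1a had 0.0125 on HFD and 0.399 on LFD, and in an LSV listed for LFD alone it had 0.988. The 619 bp of intron beside exon 3 of Serpina1a had 0.013 on HFD and 0.67 on LFD. Of the 8 called, the 1 that was higher on HFD was a segment of 64 bp in exon 2 of Gm8893, in 1 of its 2 LSVs.

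All 9 called joins were also held by at least 1 other LSV present for both diets, and each was called in 1 LSV alone. In the other LSVs the largest difference was 0.155. Of the 8 called retained introns, 2 were in another LSV present for both diets, where neither was called.

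The largest differences lay in exon 2 of Serpina1c and Serpina1a, which are identical in sequence. In an LSV listed under Serpina1a, the join of Serpina1c and Serpina1a that skips 1 base (103898867 to 103857532) had a PSI of 0.985 ± 0.00989 on HFD and 0.0125 on LFD, a difference of 0.972. The other entry, a retained segment of 40 bp in exon 2 of Serpina1c, had 0.0154 on HFD and 0.988 on LFD. In the LSV entering exon 2 of Serpina1a, the same join had 0.0125 on both diets. A second join of the same pair (103898946 to 103857611), also with 1 base skipped, had 0.986 ± 0.00626 on HFD and 0.0265 ± 0.0124 on LFD, against a retained segment of 40 bp with 0.0138 on HFD and 0.973 on LFD. This join too had 0.0125 on both diets in the LSV entering exon 2 of Serpina1a. A further join of the pair, which repeats bases of exon 4 (103896005 to 103854794), had 0.242 ± 0.0447 on HFD and 0.444 ± 0.0448 on LFD among junctions leaving exon 4 of Serpina1c. It had 0.0125 on both diets among those entering exon 4 of Serpina1a.

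Gm8893 and Serpina1d met in exon 2 as well. The join 103821868 to 103767757, which repeats part of exon 2, had 0.987 on HFD and 0.0503 ± 0.014 on LFD in an LSV of 2 entries under Serpina1b, against a retained segment of 18 bp. In 3 other LSVs that junction had 0.416 on HFD and 0.262 on LFD, 0.29 on HFD and 0.268 on LFD, and 0.0314 on HFD and 0.0206 on LFD. The join at positions 145 and 146, the ACCT word of exon 2 (103822103 to 103767902), had 0.26 ± 0.0317 on HFD and 0.0556 ± 0.0129 on LFD in an LSV under Serpina1b. In 2 LSVs under Serpina1d it had 0.131 ± 0.0304 on HFD and 0.0185 ± 0.0107 on LFD, which was not called, and 0.0125 on both diets.

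Joins of Gm8893 with other copies were called too. The join to Serpina1b 103822067 to 103732486 had 0.226 ± 0.0251 on HFD and 0.565 ± 0.0391 on LFD, while the retained segment of 64 bp in the same LSV had 0.576 ± 0.0344 on HFD and 0.0125 on LFD. In the LSV entering exon 2 of Serpina1b this join had 0.0125 on both diets. The segment of 64 bp had 0.942 ± 0.0131 on HFD and 0.933 ± 0.013 on LFD in the LSV at its other end. In another LSV a retained segment of 43 bp in exon 2 of Gm8893 had 0.382 ± 0.0533 on HFD and 0.597 ± 0.0414 on LFD. The join of Serpina1a and Gm8893 at positions 145 and 146 (103857912 to 103822102) had 0.988 on HFD and 0.597 ± 0.0487 on LFD in an LSV under Serpina1b. The same join had 0.988 on both diets in a second LSV, and 0.832 on HFD and 0.96 on LFD in the LSV of exon 2 of Gm8893.

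In LSVs listed under Gm8893, its join with Serpina1a at positions 1009 and 1010 (103854713 to 103818893) had 0.988 on HFD and 0.445 ± 0.0482 on LFD among reads leaving exon 4 of Serpina1a. Among reads entering exon 4 of Gm8893 it had 0.874 ± 0.015 on HFD and 0.881 ± 0.0133 on LFD. The edge-to-edge join of exon 3 of Serpina1a and exon 4 of Gm8893 (103855704 to 103818999) had 0.987 on HFD and 0.33 ± 0.0449 on LFD against a retained segment of 619 bp in the intron that follows exon 3. In 3 other LSVs it had 0.199 on HFD and 0.0989 on LFD, 0.0922 on HFD and 0.0363 on LFD, and 0.0245 on HFD and 0.0125 on LFD.

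The entries nearest the limit of 0.2 were close to each other. Just inside it were differences of -0.202, 0.204 and -0.215. Just outside were 0.181 at a join of Serpina1a and Gm8893 in exon 5, -0.168 at a junction within Serpina1c and 0.155 at a join of Gm8893 and Serpina1d.

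Some LSVs were listed for 1 diet alone, though their junctions could be in other LSVs listed for both. Among the 5 of the HFD table, the join of Serpina1e and Serpina1a at positions 1009 and 1010 (103948059 to 103854712) had a PSI of 0.987, and the join from exon 4 of Serpina1e to exon 5 of Serpina1c (103948014 to 103895203) had 0.985. Both had 0.0125 on both diets in the LSV of the exon they enter. Among the 8 of the LFD table, the join of Serpina1e and Serpina1a at positions 709 and 710 (103949241 to 103855897) had 0.895 ± 0.0249. Among junctions entering exon 3 of Serpina1a the same join had 0.186 ± 0.0533 on HFD and 0.26 ± 0.0517 on LFD. Absence of an LSV from a table gives no PSI of 0, and the read minimum for listing was not stated.

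Within a copy the diets differed little in the PSI tables, though not at every junction of the authors' deposited table, as given below. The 68 entries of annotated junctions, from 30 distinct junctions, differed by -0.168 to 0.0779, by under 0.05 in 61 of them and by at least 0.1 in 2, and 34 had a PSI over 0.95 on both diets. Of 163 unannotated entries, 10 reached a PSI of 0.05 on a diet. The junction that links the noncoding exon 1 to exon 2 had, among those entering exon 2, a PSI of 0.974 ± 0.0124 on HFD and 0.974 ± 0.0125 on LFD in Serpina1a, and 0.91 ± 0.0162 on HFD and 0.898 ± 0.0235 on LFD in Serpina1b. It had 0.908 ± 0.0146 on HFD and 0.926 ± 0.014 on LFD in Serpina1d, and 0.988 on HFD and 0.987 on LFD in Serpina1e. The lowest of these values was 0.898, so the annotated exon 1 supplied most reads into exon 2 in these 4 LSVs. Another LSV could differ. An unannotated junction into exon 2 of Serpina1d (103768739 to 103768047) had 0.0174 on HFD and 0.0173 on LFD under Serpina1d. In an LSV under Serpina1b the same junction had 0.472 on HFD and 0.598 on LFD.

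Among the LSVs that enter exon 2 of a Serpina1 gene under the gene's own name, leaving Gm8893 aside, that of Serpina1c was the exception. Its reads were divided among several junctions. Of the junctions entering its exon 2, the annotated one from exon 1 (103904859 to 103899389) had a PSI of 0.49 ± 0.0317 on HFD and 0.599 ± 0.035 on LFD. A junction from a longer form of exon 1 (103904512 to 103899389), not in GENCODE, had 0.276 ± 0.027 on HFD and 0.193 ± 0.0238 on LFD. A junction from an unannotated exon between them (103900102 to 103899389) had 0.198 ± 0.0236 on HFD and 0.166 ± 0.0231 on LFD. None of these differences reached 0.2, and that of the junction from the unannotated exon, 0.0321, was about as large as the combined posterior SD of the diets.

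Read from exon 1, the annotated junction to exon 2 had 0.366 ± 0.0277 on HFD and 0.534 ± 0.0384 on LFD. The junction to the longer form of the extra exon (103904859 to 103900359) had 0.279 ± 0.0265 on HFD and 0.17 ± 0.0245 on LFD, and that to its shorter form (103904859 to 103900329) had 0.147 ± 0.019 on HFD and 0.121 ± 0.0184 on LFD. The difference of the shorter form, 0.0263, was likewise about as large as the combined posterior SD. All these junctions lie in the 5' untranslated part of the gene, upstream of exon 2.

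**Figure D4:**
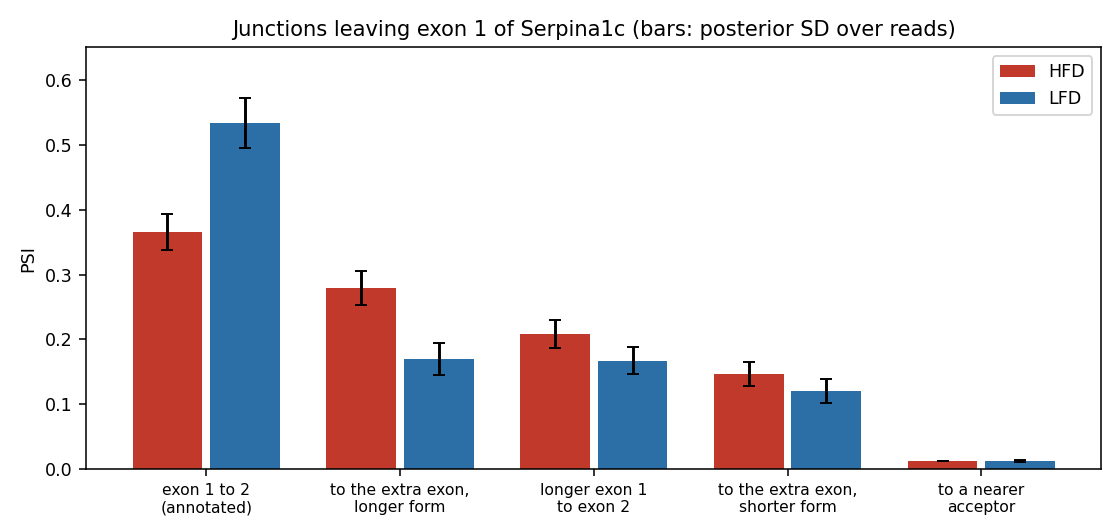
PSI of the 5 junctions that leave exon 1 of Serpina1c, with a bar for HFD left of the bar for LFD, values pooled over 3 libraries per diet and error bars of 1 posterior SD over reads. The annotated junction to exon 2 stands at 0.366 on HFD and 0.534 on LFD, and the junction to the longer form of an unannotated exon at 0.279 on HFD and 0.17 on LFD.

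The authors' deposited table of differences came from a separate run, and held 6 member LSVs of the 124 it lists. In 14 of the 124 (11.3%) the largest change was at least 0.5, and 5 of the 6 member LSVs were among these. By coordinates the 6 were 4 distinct LSVs, because an exon was listed under Serpina1b and again under Gm8893, and another under Serpina1c and again under B430119L08Rik. The largest entry of 5 LSVs was found in both PSI tables. In 0 of these 5 did the difference lie within 0.1 of the listed one, and in 4 it had the opposite sign. These 4 were the 2 exons listed under 2 names, each counted under both. Their differences in the PSI tables ran only from -0.0771 to 0.0503 and none was called, so the sign is not read as a reversal. In all 5 the LSV of the PSI tables held more entries than the listed LSV.

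The pair of exon 4 of Gm8893 shows this. In the authors' deposited table the annotated junction from exon 3 to exon 4 of Gm8893 (103819885 to 103818999) had a PSI of 0.998 on HFD and 0.049 on LFD under Serpina1b. The PSI tables gave 0.46 ± 0.0362 on HFD and 0.537 ± 0.0372 on LFD for it in an LSV of 4 entries. Under Gm8893 the authors' deposited table had 0.997 on HFD and 0.05 on LFD, where the PSI tables gave 0.0598 ± 0.00856 on HFD and 0.0649 ± 0.00887 on LFD. The entry that competed with it in the authors' deposited table was the join at positions 1009 and 1010 of Serpina1a and Gm8893, with 0.001 on HFD and 0.949 on LFD.

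In the authors' deposited table the exon 3 of Serpina1e had a like exchange between 2 joins with Serpina1c. Under B430119L08Rik and under Serpina1c the join from the end of exon 3 to exon 4 (103949047 to 103896155) was listed in the authors' deposited table at 0.998 on HFD, against 0.089 on LFD under the antisense gene and 0.081 on LFD under Serpina1c. The PSI tables gave 0.0413 ± 0.00901 on HFD and 0.0954 ± 0.0217 on LFD in the antisense LSV. The competing join at positions 709 and 710 had 0.002 on HFD and 0.919 on LFD under Serpina1c in the authors' deposited table, and 0.952 on HFD and 0.902 on LFD in the PSI tables.

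In a further LSV, under Serpina1b, the authors' deposited table gave a retained segment of 131 bp in exon 2 of Serpina1d a PSI of 0 on HFD and 0.701 on LFD. It gave the join of Serpina1d and Serpina1b 103767663 to 103732297, which repeats bases of exon 2, 0.837 on HFD and 0.202 on LFD in the authors' deposited table. That LSV was matched in neither PSI table. In the LSV entering exon 2 of Serpina1b the PSI tables gave this join 0.0127 on HFD and 0.0125 on LFD. For the segment of 131 bp the authors' deposited table lists a probability of 0.0365 for a change of at least 0.2. Its listed probabilities did not follow the size of the change, with 1.49e-13 at a change of -0.951, and nothing is read from them.

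The remaining LSV was that of exon 1 of Serpina1c, the one listed LSV whose entries all lie within a copy. The authors' deposited table gave the annotated junction 0.367 on HFD and 0.651 on LFD, a change of -0.294. It gave the junction to the longer extra exon 0.352 on HFD and 0.168 on LFD, and the junction to its shorter form 0.281 on HFD and 0.179 on LFD, in the authors' deposited table. Its listed changes for these 2 junctions were 0.187 and 0.0307 in the authors' deposited table. At all 3 junctions the listed change had the sign of the difference in the PSI tables and was larger. This LSV had 3 entries in the authors' deposited table and 5 in the PSI tables.

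**Figure D5:**
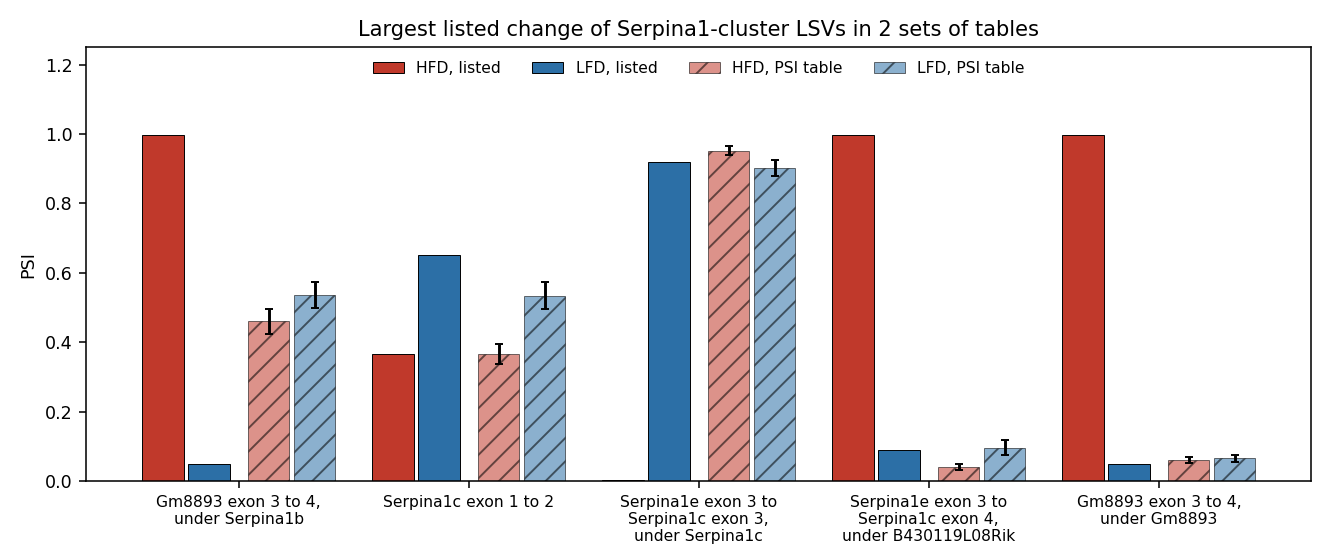
PSI of the entry with the largest listed change in the 5 member LSVs found in both sets of tables. Solid bars are the authors' deposited table of differences and hatched bars the PSI tables (error bars are 1 posterior SD over reads), with HFD in red left of LFD in blue; exon 3 to 4 of Gm8893 is listed at 0.998 on HFD and 0.049 on LFD but stands at 0.46 on HFD and 0.537 on LFD in the PSI tables, while exon 1 to 2 of Serpina1c has the same direction in both.

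JUM, which defines events in another way, listed 5 member events with an unadjusted p under 0.05, and 0 of them passed an adjusted p of 0.05, which 83 of all 470 listed events did (17.7%). The event at the 5' end of Serpina1c (103899389 to 103904857) had changes of -0.198, -0.00273 and 0.2 in 1 set and of 0.148 and -0.148 in another in the authors' deposited table (JUM adjusted p = 0.123). The table does not pair these values with junctions. A Serpina1c event that runs from Gm8893 to Serpina1e lay between -0.266 and 0.266 in the authors' deposited table (JUM adjusted p = 0.255). The event of Serpina1a lay between -0.0829 and 0.101 in the authors' deposited table (JUM adjusted p = 0.297). The cassette exon of Serpina1e changed by -0.00283, and the Serpina1b event, which runs from Serpina1b to Serpina1e, by -0.00217 to 0.00183, in the authors' deposited table.

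B430119L08Rik had no splicing of its own that could be told from Serpina1c. Of its 14 distinct junctions, 12 were also listed under Serpina1c, and its own annotated junction (103896166 to 103897061) stood at 0.0125, the lowest value of the scale, on both diets. The libraries were stranded, per the labels' protocols, but whether counting used the strand was not stated.

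Genes related to alpha-1-antitrypsin were given by list. Of 16 other liver serpins, most of which are secreted by hepatocytes, 13 were measured and 2 had a called entry, Serpina3k and Serpina3m, neighbours of each other on chromosome 12. A junction of 48518 bp shared by both (104391671 to 104343153) had 0.987 on HFD and 0.0127 on LFD under Serpina3k, and 0.317 on HFD and 0.0125 on LFD under Serpina3m. Both genes were also in the authors' deposited table of differences, at other junctions. There Serpina3k had 0.57 on HFD and 0.196 on LFD, and Serpina3m 0.997 on HFD and 0.007 on LFD, in the authors' deposited table. Of 24 genes that fold, export or degrade alpha-1-antitrypsin in the endoplasmic reticulum, 21 were measured, 0 had a called entry and 0 were in the table of differences. Retreg1, a receptor for autophagy of the endoplasmic reticulum, had a retained intron that was higher on HFD by 0.25 in the authors' deposited table (JUM adjusted p = 0.0245). Of 10 transcription factors of the gene, 6 were measured and 0 had a call. The median of the largest difference per gene was 0.0305 for the other serpins, 0.0267 for the endoplasmic reticulum genes and 0.0942 for the transcription factors, against 0.031 over all 5978 genes, of which 138 had a call. It was 0.168 for the 7 members.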

How the data were processed

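Polyadenylated RNA from hepatocytes was sequenced as stranded paired ends, with 3 libraries per diet, per the labels' protocols. The submitters' processing notes name FastQC, STAR and the build mm10. Per the file headers, the authors deposited a MAJIQ/voila table of PSI (a fraction) and posterior variance for each diet, a table of PSI differences from a separate run whose folder is named strict, and a JUM table of events with p-values under 0.05. The libraries of a diet were pooled. The title of the JUM table names NC livers; the heading of its column of changes, which gives HFD minus LFD, was followed. The treatment of multiply mapped reads was not stated.

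LSVs were matched between diets by identifier, and junctions were assigned to copies by RefSeq spans (GENCODE M21 for other pseudogenes). Exons 2 to 5 were aligned without gaps. Both ends of a junction had to lie in different copies for a join. Named entries were those called, those nearest the limit, those in the authors' tables and those shared by several LSVs, and the last were chosen after their values were seen. Members, lists and rules were chosen with earlier results of these data known. The rule for calls was tested on simulated reads without a spread between animals, and the step was checked on annotated introns. Python 3.11.15 and matplotlib 3.10.9 were used. Alternatives were another minimum difference, no variance criterion, no retained introns, matching by coordinates and other limits for the authors' tables.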

Additional observations from a re-analysis of the deposited data

How the results depend on the processing

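With a minimum difference of 0.1 the called member entries numbered 32 and without retained introns 9, against 17 as reported. At 0.3 they were 14, and without the variance criterion, or with each distinct junction counted once, 17. Member LSVs present for both diets numbered 84, or 83 when matched by junction coordinates, and joins numbered 177, or 180 when any junction over 10 kb was counted. All 5 listed JUM events count if no adjusted p is asked for, against 0 at 0.05 or 0.01. The listed differences that recurred in the PSI tables were 0 of 5 within 0.1, within 0.05, or with the same sign and at least 0.2. No paired analysis was possible because the deposited values pool the libraries of a diet, and for the same reason no library could be left out in turn. At 50 member entries with a PSI of 0.1 to 0.9 the effective read number was 215 for HFD and 186 for LFD, with a median posterior SD of 0.0311 for HFD and 0.0298 for LFD, so that differences of a few hundredths could not be resolved. Sequence was compared in exons of GENCODE transcripts alone, so bases of introns around the junctions were not examined.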
